A study of Mus musculus with 9 samples.

Results

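The genes described here encode the enzymes that put acetyl groups on histones, the bromodomain proteins that bind them, and the enzymes that add or remove histone methyl groups. A fixed list of 58 gene symbols was looked up in the platform annotation among probe sets with exactly 1 symbol, and 43 were measured out of the 12393 genes on the arrays. Of these, 15 of 21 listed genes are grouped under histone acetylation and 28 of 37 under histone methylation. The methylation group includes 4 subunits of Polycomb repressive complex 1 (PRC1), which ubiquitinates histone H2A. The brightest probe set over the 9 arrays stood for each gene. Ep300, Kat5, Kat8, Brd9, Atad2, Taf1, Setd1b, Ash1l, Setd2, Ehmt1, Suv39h1, Dot1l, Kdm2a, Kdm4a and Kdm6b were not analysed here.

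The arrays carried RNA of mouse splenic dendritic cells (DC) treated with butyrate, treated with trichostatin A (TSA), or left untreated, with 3 arrays in each group. All groups came from mice aged 6 to 8 weeks that bore B.16 tumours expressing Flt3L, a growth factor that expands DC, and all cells were purified on CD11c beads. The labels give no strain, dose or duration, so differences between the treatments cannot be told apart from differences in dose or time. Nor do they state that replicates are different mice or cultures, so the p-values measure only the spread between these arrays, which may be technical.

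Histone acetyltransferases transfer acetyl groups to lysines of histone tails, and histone deacetylases (HDACs) take them off. Butyrate (a fatty acid that gut microbes release) and TSA (a hydroxamic acid from Streptomyces) both block HDACs. Bromodomains bind acetylated lysine and bring transcription factors to active genes. Methylation works through paired writers and erasers: Polycomb complexes and H3K9 methyltransferases are tied to silent genes, while the MLL and SET1 enzymes methylate H3K4 at active promoters and enhancers.

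The levels are log2 values made by the authors with RMA, which levels out the arrays so that changes are relative to the bulk of genes, and changes of dim genes are understated. Transcripts spiked in for the hybridization were brighter by 0.419 log2 units in butyrate than in untreated arrays, and by 0.0541 in TSA than in untreated arrays. Each butyrate change below would be lower by about that amount on the hybridization spike-in scale, where the median butyrate change of all genes was −0.335 instead of 0.0845. The gap between the Actb probe sets at the 3′ and the 5′ end, which grows as RNA degrades, was 0.682 ± 0.0402 in butyrate, 0.641 ± 0.0418 in TSA and 0.432 ± 0.0661 log2 units in untreated arrays (SD, n = 3 each); its part in the results was not tested. The DC markers Flt3, Itgax and Zbtb46 were present, at means of 10.39, 8.50 and 8.22 in butyrate, 10.43, 8.25 and 8.31 in TSA, and 11.02, 9.24 and 8.89 in untreated samples. Of 11 conventional DC markers, 3 were higher and 7 lower with butyrate and 1 was higher and 6 lower with TSA, from Sirpa at −1.71 to Irf4 at 0.68 with butyrate. The mean of this list ran from 9.743 to 9.749 in butyrate, from 9.811 to 9.847 in TSA and from 10.11 to 10.17 in untreated arrays. Mean levels of some marker lists of other cells moved with the groups. B cell markers averaged 7.405 to 7.469 in butyrate, 7.193 to 7.287 in TSA and 7.592 to 7.678 in untreated arrays. In the same order of groups, NK cell markers averaged 6.156 to 6.18, 6.233 to 6.346 and 6.369 to 6.402. Erythroid markers averaged 8.888 to 8.945, 8.744 to 8.775 and 8.948 to 8.984. B16 melanoma markers averaged 5.612 to 5.699, 5.512 to 5.635 and 5.698 to 5.769, with overlap. For 9 macrophage and monocyte markers, 7 lower with butyrate and 8 lower with TSA, the list mean ran from 7.968 to 8.127 in butyrate, from 7.966 to 8.061 in TSA and from 8.651 to 8.745 in untreated arrays. For 7 neutrophil markers it ran from 10.6 to 10.63 in butyrate, from 10.35 to 10.45 in TSA and from 10.98 to 11.02 in untreated arrays, with 3 higher and 4 lower with butyrate and 4 lower with TSA. For 5 plasmacytoid DC markers, 1 higher and 4 lower with butyrate and 3 lower with TSA, it ran from 9.309 to 9.458 in butyrate, from 9.584 to 9.64 in TSA and from 10.03 to 10.12 in untreated arrays. For 6 T cell markers it ran from 6.445 to 6.479 in butyrate, from 6.262 to 6.4 in TSA and from 6.911 to 7.018 in untreated arrays; with butyrate 1 of them, Cd8b1, was called lower (−3.00), and with TSA 3 were. For 19 genes of cycling cells it ran from 8.792 to 8.851 in butyrate, from 8.775 to 8.821 in TSA and from 8.775 to 8.868 in untreated arrays, with 5 higher and 7 lower with butyrate and 5 higher and 8 lower with TSA. In such bulk samples fewer cells of a type and less RNA per cell cannot be told apart, and the part of these cells in the results was not tested.

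The largest fall among the members was that of a PRC1 subunit gene, and the largest rise that of a demethylase gene. With butyrate, the Polycomb gene Bmi1 was 3.20-fold lower than in untreated cells and the H3K4 demethylase gene Kdm5b was 2.31-fold higher; with TSA, Bmi1 was 1.94-fold lower and Kdm5b 2.16-fold higher. Among acetylation genes, Brd8 and the acetyltransferase genes Kat2b and Crebbp were lower with both treatments, while the reader Brd2 was 1.87-fold higher with butyrate and not called with TSA. Most other members changed by less than 1.5-fold.

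In all, 31 of 43 members were called with butyrate against untreated, 15 higher and 16 lower, at a limma adjusted p under 0.05. Over all genes the share called was 58.4%, with 33.6% higher and 24.8% lower. With TSA 23 of 43 were called, 14 higher and 9 lower, against 47.3% of all genes, 26.3% higher and 21% lower. The members were brighter than most genes, with a median level of 8.781, and among genes above the median level 75.9% were called with butyrate and 70.3% with TSA. The members' shares of 72.1% with butyrate and 53.5% with TSA lie below those of the brighter genes. Arrays of the groups did not overlap for 34 of 43 members with butyrate and 24 with TSA, against 62.7% and 54.9% of all genes. Changes of at least 2-fold were about as frequent as over all genes with butyrate, in 3 of 43 members against 7.33% of all genes. With TSA 1 of 43 members passed 2-fold, against 5.41% of all genes. The median absolute change was 0.358 log2 units with butyrate and 0.228 with TSA, against 0.235 and 0.172 over all genes. It was not compared with that of genes above the median level alone.

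Acetylation and methylation genes had different balances of calls. Of 15 acetylation writers and readers, 4 rose and 8 fell with butyrate and 3 rose and 5 fell with TSA, with median changes of −0.147 and −0.0475. Of 28 genes in the methylation group, PRC1 subunits included, 11 rose and 8 fell with butyrate and 11 rose and 4 fell with TSA. The medians were 0.0738 and 0.0914. The median over all genes was 0.0845 with butyrate and 0.0322 with TSA. Over all genes 33.6% were called higher and 24.8% lower with butyrate, and 26.3% and 21% with TSA. The methylation group lay near these shares with butyrate. The same shares stand beside the counts by role below. The difference between these balances was not tested, and both treatments were set against the same 3 untreated arrays. The hybridization spike-in scale lowers every change against untreated, by 0.419 with butyrate and 0.0541 with TSA. Falls only deepen there, so a kept call is no test of them. All 16 butyrate falls kept their call. Of the 15 rises, only those of Brd2, Brd3, Kdm5a and Kdm5b did. Brd7, Ezh1, Ring1, Rnf2, Kmt2a, Kmt2d, Setdb1 and Prmt5 turned below 0 there, and Brd7 was called lower. With TSA all 9 falls and 9 of the 14 rises kept their calls on that scale, while the TSA rises of Brd7, Brpf1, Suz12, Ring1 and Wdr5 lost theirs and Brd3 gained one.

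**Figure D1:**
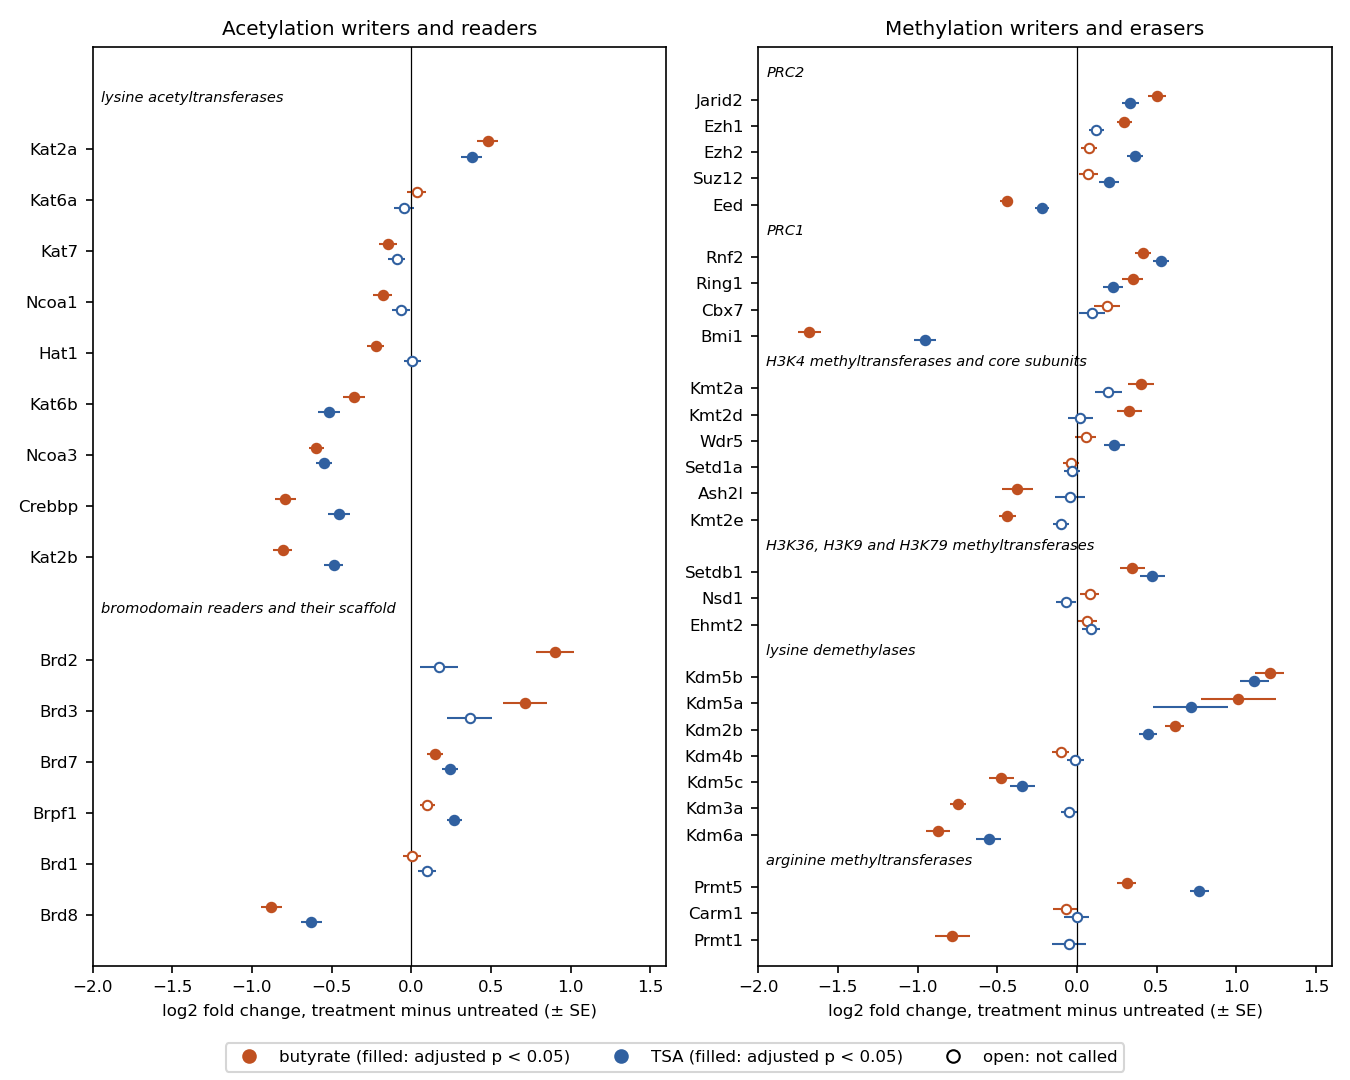
Log2 fold change of each of the 43 members against untreated cells, on the deposited scale (x axis, log2 units), in butyrate (orange, upper point) and TSA (blue, lower point); bars are limma standard errors, n = 3 arrays per group, and filled points have an adjusted p under 0.05. Bmi1 lies furthest left at −1.68 with butyrate and Kdm5b furthest right at 1.21; on the hybridization spike-in scale the 8 butyrate rises of Brd7, Ezh1, Ring1, Rnf2, Kmt2a, Kmt2d, Setdb1 and Prmt5 turn below 0.

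Promoter sequences are shown for the members with the largest rise and the largest fall with butyrate among methylation genes, Kdm5b and Bmi1, and for the largest rise among readers and the largest fall among acetyltransferases, Brd2 and Kat2b. Each window runs from 250 bases before to 50 bases after a RefSeq start in the mouse build GRCm38.p6 and reads 5′ to 3′ on the gene's strand. Kat2b has 2 listed starts and Brd2 has 3, and the one with the most CpG dinucleotides is given. Capitals mark GC boxes (GGGCGG, the core of Sp1-type sites) and CCAAT boxes (CCAAT, the core of NF-Y sites) on either strand.

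Bmi1, chr2:18676768-18677067, plus strand: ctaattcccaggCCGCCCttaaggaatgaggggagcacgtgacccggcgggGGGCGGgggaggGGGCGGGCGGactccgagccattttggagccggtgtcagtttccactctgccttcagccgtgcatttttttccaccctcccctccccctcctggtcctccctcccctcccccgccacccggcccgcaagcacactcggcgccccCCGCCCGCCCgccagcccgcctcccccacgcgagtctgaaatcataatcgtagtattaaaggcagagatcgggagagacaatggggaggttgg

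Kdm5b, chr1:134559928-134560227, plus strand: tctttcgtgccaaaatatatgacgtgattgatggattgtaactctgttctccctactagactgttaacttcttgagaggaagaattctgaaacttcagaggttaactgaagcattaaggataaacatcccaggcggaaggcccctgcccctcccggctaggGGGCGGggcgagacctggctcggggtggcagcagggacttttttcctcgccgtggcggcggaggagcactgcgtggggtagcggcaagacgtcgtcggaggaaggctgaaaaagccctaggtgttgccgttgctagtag

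Kat2b, chr17:53566721-53567020, plus strand: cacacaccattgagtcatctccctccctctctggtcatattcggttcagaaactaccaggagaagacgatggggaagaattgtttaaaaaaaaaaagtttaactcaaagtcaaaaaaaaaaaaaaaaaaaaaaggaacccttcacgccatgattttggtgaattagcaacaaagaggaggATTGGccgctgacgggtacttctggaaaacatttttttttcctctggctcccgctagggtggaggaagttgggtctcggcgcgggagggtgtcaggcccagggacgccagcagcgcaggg

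Brd2, chr17:34122558-34122857, minus strand: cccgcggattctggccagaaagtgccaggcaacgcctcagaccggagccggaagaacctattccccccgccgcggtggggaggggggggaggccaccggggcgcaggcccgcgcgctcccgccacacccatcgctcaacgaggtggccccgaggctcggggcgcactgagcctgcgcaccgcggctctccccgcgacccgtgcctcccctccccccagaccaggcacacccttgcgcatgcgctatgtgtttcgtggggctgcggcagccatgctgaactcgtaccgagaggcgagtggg

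The Bmi1 window held 6 GC boxes, some of them overlapping, and 23 CpGs. The Kdm5b window held 1 GC box and 17 CpGs, the Kat2b window 1 CCAAT box and 11 CpGs, and the Brd2 window 32 CpGs and neither box. Promoters were found for 34 of the 43 members, with 45 windows in all. A GC box was present in 71.1% of them, against 55.4% of the 12546 windows of the genes tested and 35.9% of all 32544 windows. The CCAAT box was present in 35.6%, 37.1% and 37.4%. The median window of the members held 27 CpGs, against 17 for the genes tested. Members higher with butyrate had a GC box in 15 of 20 windows of 14 genes, with a median of 25.5 CpGs. Members lower with butyrate had one in 10 of 16 windows of 12 genes, with a median of 22. Members not called with butyrate had one in 7 of 9 windows of 8 genes, with a median of 33. Some windows of 1 gene overlap, so the windows are not independent. These are matches of letters, not measured binding sites.

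Lysine acetyltransferase genes were lower or not called with both treatments, except for Kat2a. Of 9 measured, 1 rose and 7 fell with butyrate and 1 rose and 4 fell with TSA. Kat2b (PCAF) and Kat2a (GCN5), the alternative catalytic subunits of the SAGA and ATAC coactivator complexes, moved in opposite directions. Kat2b measured 8.60, 8.45 and 8.49 log2 units in butyrate, 8.89, 8.76 and 8.86 in TSA, and 9.27, 9.38 and 9.31 in untreated samples. No groups overlapped, with TSA between the other groups. The changes were −0.81 ± 0.060 with butyrate (limma adjusted p = 1.11e-06) and −0.49 ± 0.060 with TSA (adjusted p = 5.77e-05), where the error is limma's standard error with n = 3 arrays per group, as in all changes below. Kat2a measured 8.05, 8.06 and 8.25 in butyrate, 7.98, 8.10 and 7.99 in TSA, and 7.58, 7.66 and 7.68 in untreated samples, a rise of 0.48 ± 0.066 and 0.38 ± 0.066 (adjusted p = 0.000112 and 0.000651). Every treated array of Kat2a lay above every untreated one; on the hybridization spike-in scale its butyrate change was 0.0598 and no longer called. In the log2 difference of Kat2a minus Kat2b, which such a scaling leaves untouched, butyrate arrays averaged −0.394 ± 0.159, TSA arrays −0.812 ± 0.135 and untreated arrays −1.68 ± 0.0413 (SD, n = 3 each). The exact two-sided permutation p was 0.1 for either treatment, the smallest that 3 arrays against 3 allow, and 0.133 after adjustment over 20 such tests.

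Crebbp (CBP), the acetyltransferase that with p300 marks enhancers, measured 7.26, 7.46 and 7.31 in butyrate, 7.77, 7.68 and 7.59 in TSA, and 8.07, 8.17 and 8.17 in untreated samples. The groups did not overlap. The changes were −0.79 ± 0.068 (adjusted p = 3.22e-06) and −0.45 ± 0.068 (adjusted p = 0.000233). Ncoa3, a nuclear receptor coactivator of the p160 family, fell to 8.13, 8.13 and 8.05 in butyrate and 8.20, 8.09 and 8.16 in TSA, against 8.69, 8.69 and 8.71 in untreated samples. Both treatments lowered it by similar amounts, −0.60 ± 0.049 and −0.55 ± 0.049. Its relative Ncoa1 changed less, by −0.18 ± 0.057 with butyrate (adjusted p = 0.0202) and −0.07 ± 0.057 with TSA (not called). The butyrate call of Ncoa1 was lost without untreated replicate 2 (−0.174) or 3 (−0.161) or butyrate replicate 1 (−0.147), and its dimmer probe set was not called (−0.08).

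The MYST-family acetyltransferases differed among themselves. Kat6b (MORF) fell by 0.36 ± 0.070 with butyrate and by 0.52 ± 0.070 with TSA, while its close relative Kat6a (MOZ) was not called, at 0.03 ± 0.062 and −0.05 ± 0.062. The difference Kat6a minus Kat6b was above its untreated values on all treated arrays, by 0.391 with butyrate and 0.471 with TSA (exact permutation p = 0.1 each, the smallest possible). Kat7 (HBO1), which acetylates histone H3 at replication origins and genes, fell by 0.15 ± 0.054 with butyrate (adjusted p = 0.0387), a call lost without any 1 of 6 arrays and not seen in its other, dimmer probe set (0.17). Hat1, which acetylates newly made histone H4, fell by 0.22 ± 0.054 with butyrate and stood at 0.01 ± 0.054 with TSA, and butyrate lay below TSA by 0.23 ± 0.054 (adjusted p = 0.00843).

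Among the bromodomain readers, 3 of 6 rose and 1 fell with butyrate, and 2 rose and 1 fell with TSA. Brd2, a BET protein that couples acetylated chromatin to transcription, was the brightest member and measured 12.06, 12.04 and 11.99 in butyrate, 11.39, 11.34 and 11.18 in TSA, and 11.36, 11.20 and 10.81 in untreated samples. All butyrate arrays stood above all others, whereas TSA and untreated arrays overlapped. The change was 0.90 ± 0.119 with butyrate (adjusted p = 8.72e-05), and 0.483 and still called on the hybridization spike-in scale. With TSA it was 0.18 ± 0.119 (adjusted p = 0.272), and butyrate exceeded TSA by 0.73 ± 0.119 (adjusted p = 0.0012). A second, dimmer Brd2 probe set was higher by 0.50 with butyrate and stood at −0.01 with TSA.

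Brd3, another BET gene, measured 8.09, 8.23 and 8.11 in butyrate, 7.92, 7.91 and 7.56 in TSA, and 7.68, 7.51 and 7.11 in untreated samples. It rose by 0.71 ± 0.139 with butyrate (adjusted p = 0.00131), and its TSA change of 0.37 ± 0.139 just missed the threshold (adjusted p = 0.053); its other probe sets were called higher with TSA, by 0.47 and 0.22. The third array of both the untreated and the TSA group was the lowest for Brd2 and for Brd3. Brd8, the bromodomain subunit of the TIP60 acetyltransferase complex, measured 8.47, 8.32 and 8.42 in butyrate, 8.63, 8.65 and 8.68 in TSA, and 9.18, 9.26 and 9.41 in untreated samples. Its groups did not overlap, at −0.88 ± 0.066 with butyrate (adjusted p = 1.2e-06) and −0.63 ± 0.066 with TSA (adjusted p = 1.86e-05). The remaining readers moved little. Brpf1, the scaffold of the MOZ and MORF complexes, rose by 0.27 ± 0.047 with TSA and was not called with butyrate (0.10 ± 0.047). Brd7, a subunit of a SWI/SNF remodelling complex, rose by 0.15 ± 0.051 with butyrate and 0.24 ± 0.051 with TSA. Its butyrate value was −0.268 on the hybridization spike-in scale. The butyrate call was lost without untreated replicate 2 (0.134) or butyrate replicate 2 (0.115) or 3 (0.151), and with median centring (0.135). Brd1 was not called with either treatment (0.00 ± 0.056 and 0.10 ± 0.056).

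**Figure D2:**
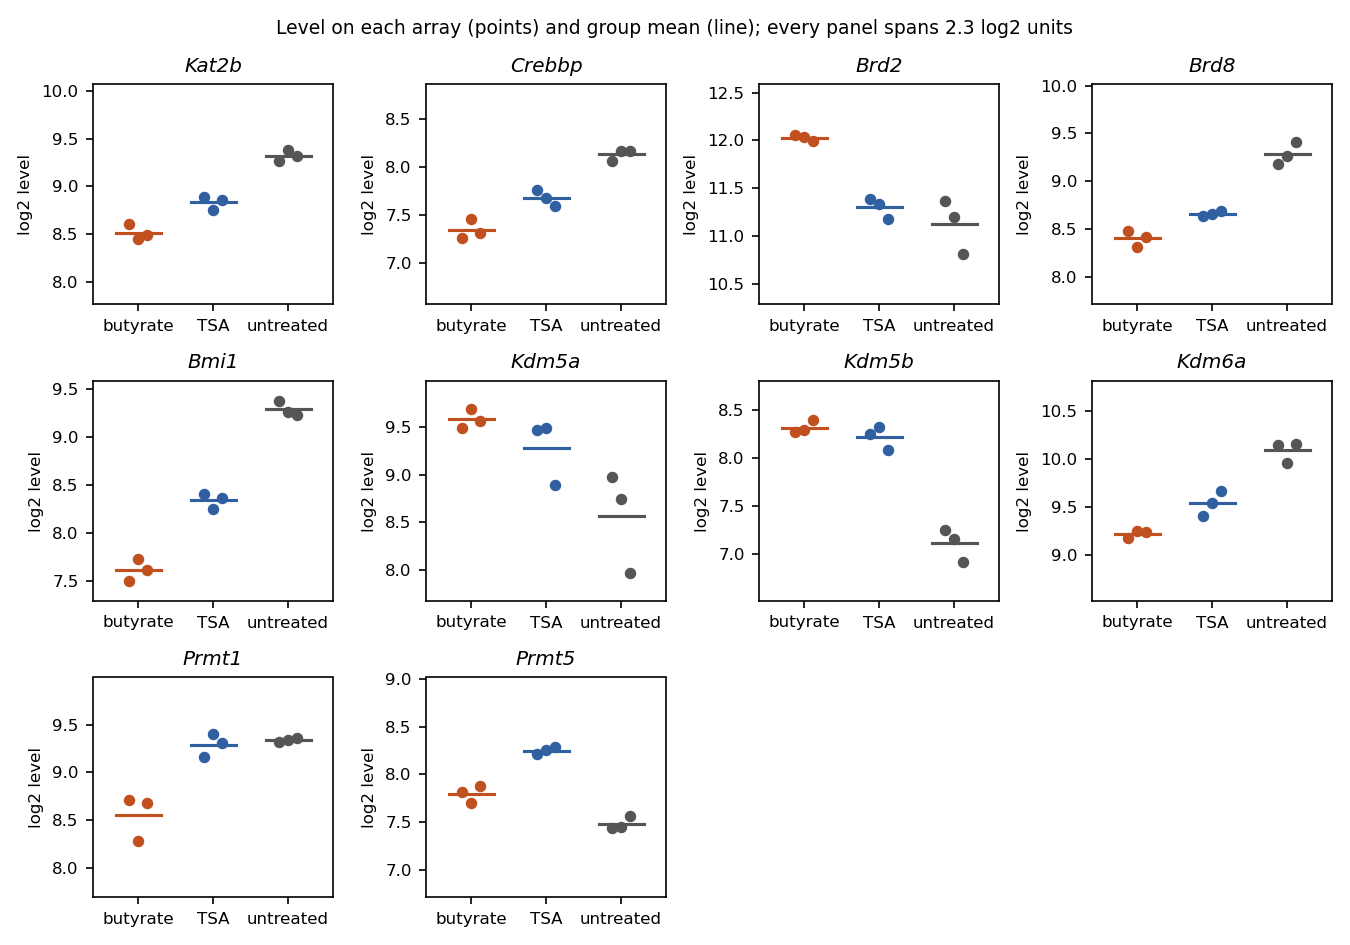
Log2 level (y axis) on each of the 9 arrays for the 10 members with a called change of at least 0.75 log2 units in either treatment; points are arrays, lines are group means, and groups stand in the order butyrate, TSA, untreated. Bmi1 is lowest in butyrate, next in TSA and highest in untreated samples without overlap, Kdm5a is spread over 7.97 to 8.97 in untreated samples, and Prmt1 is lower in butyrate only, at 8.28 to 8.71.

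Polycomb repressive complex 2 (PRC2) places methyl groups on H3K27. Of its 5 measured subunits, 2 rose and 1 fell with butyrate, and 3 rose and 1 fell with TSA. On the deposited scale the catalytic subunit Ezh2 was called with TSA and Ezh1 with butyrate. Ezh2, the form typical of dividing cells, measured 10.02, 9.99 and 9.99 in butyrate, 10.29, 10.22 and 10.36 in TSA, and 9.90, 9.97 and 9.89 in untreated samples. It rose by 0.37 ± 0.050 with TSA (adjusted p = 0.000131) and was not called with butyrate (0.08 ± 0.050), and butyrate lay below TSA by 0.29 ± 0.050 (adjusted p = 0.00167). Scaled to the hybridization spike-ins, Ezh2 was called with both, at −0.343 with butyrate and 0.313 with TSA. Ezh1, the form of resting cells, measured 9.94, 9.89 and 9.86 in butyrate, 9.74, 9.67 and 9.75 in TSA, and 9.57, 9.61 and 9.62 in untreated samples. It rose by 0.30 ± 0.047 with butyrate (adjusted p = 0.000327), and stood at 0.12 ± 0.047 with TSA (adjusted p = 0.0574, called under 3 alternatives), against −0.121 with butyrate and 0.0681 with TSA once scaled to the hybridization spike-ins, neither called. Within arrays, Ezh1 minus Ezh2 differed from its untreated mean by 0.222 with butyrate and by −0.245 with TSA, and the 3 groups did not overlap (exact permutation p = 0.1 each, the smallest possible).

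Jarid2, a PRC2 cofactor that helps to recruit the complex, rose by 0.50 ± 0.056 with butyrate and 0.34 ± 0.056 with TSA, and its 3 probe sets were called higher with both. On the hybridization spike-in scale its butyrate change was 0.0812 and not called. Eed, which binds methylated H3K27, measured 9.72, 9.70 and 9.73 in butyrate, 9.94, 9.93 and 9.95 in TSA, and 10.18, 10.16 and 10.13 in untreated samples. This was a fall of 0.44 ± 0.042 and of 0.22 ± 0.042 (adjusted p = 7.33e-06 and 0.00132). A much dimmer Eed probe set, at a mean of 5.29 against 9.94, was called in the other direction (0.34 with butyrate and 0.36 with TSA), so the direction for Eed depends on the probe set. Suz12, the zinc finger subunit, rose by 0.20 ± 0.061 with TSA (adjusted p = 0.0199), a call lost without the third untreated array or either of 2 TSA arrays and made by 1 of its 6 probe sets; with butyrate it stood at 0.07 ± 0.061.

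PRC1 ubiquitinates histone H2A, with RING-type ligases and a PCGF subunit that sets the form of the complex. Bmi1, the PCGF subunit of canonical PRC1, had the largest change of all members. It measured 7.50, 7.72 and 7.61 in butyrate, 8.40, 8.25 and 8.36 in TSA, and 9.38, 9.27 and 9.23 in untreated samples. The groups lay far apart, and the changes were −1.68 ± 0.071 with butyrate (adjusted p = 2.18e-08) and −0.95 ± 0.071 with TSA (adjusted p = 1.45e-06). Butyrate was below TSA by 0.73 ± 0.071 (adjusted p = 6.12e-05), and a second probe set fell by 1.53 and 0.73. The ligase genes moved the other way on the deposited scale. Rnf2 (RING1B) measured 9.23, 9.23 and 9.17 in butyrate, 9.32, 9.28 and 9.38 in TSA, and 8.83, 8.80 and 8.76 in untreated samples, a rise of 0.42 ± 0.048 and 0.53 ± 0.048. Ring1 (RING1A) rose by 0.35 ± 0.065 and 0.23 ± 0.065. On the hybridization spike-in scale the butyrate changes of Rnf2 and Ring1 were −0.00380 and −0.0689, neither called. Cbx7, the chromodomain subunit, was dim (mean 5.97) and not called, at 0.19 ± 0.082 and 0.10 ± 0.082.

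Of 6 H3K4 methyltransferases and core subunits, 2 rose and 2 fell with butyrate, and 1 rose with TSA. Kmt2a (MLL1) measured 9.37, 9.39 and 9.52 in butyrate, 9.32, 9.15 and 9.20 in TSA, and 9.16, 9.06 and 8.85 in untreated samples. It rose by 0.40 ± 0.083 with butyrate (adjusted p = 0.0019) and stood at 0.20 ± 0.083 with TSA (adjusted p = 0.0769). A second Kmt2a probe set of similar brightness was called higher with TSA (0.24, adjusted p = 0.0114) and with butyrate (0.46). Kmt2d (MLL4), an enhancer methyltransferase, rose by 0.33 ± 0.079 with butyrate and stood at 0.02 ± 0.079 with TSA. On the hybridization spike-in scale Kmt2a and Kmt2d stood at −0.0176 and −0.0912 with butyrate. Kmt2e (MLL5), a family member not known for strong enzyme activity, fell to 9.86, 9.88 and 9.86 in butyrate, against 10.29, 10.15 and 10.16 in TSA and 10.29, 10.35 and 10.27 in untreated samples. Its change was −0.44 ± 0.052 with butyrate (adjusted p = 4.07e-05) and −0.10 ± 0.052 with TSA (not called); a second bright probe set was not called with butyrate (−0.20). Of the shared core subunits, Ash2l fell by 0.37 ± 0.096 with butyrate. Its dimmer probe set was not called with butyrate (0.14), nor was the mean of its probe sets (−0.119). Wdr5, also a core subunit, rose by 0.24 ± 0.065 with TSA (adjusted p = 0.0125, or 0.16 once scaled to the hybridization spike-ins). The dimmer probe set of Wdr5 was not called. Setd1a, a SET1 catalytic subunit, was not called with either treatment (−0.04 ± 0.050 and −0.03 ± 0.050).

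Of the methyltransferases for other lysines of histone H3, only Setdb1, Ehmt2 and Nsd1 were measured. Setdb1, which methylates H3K9 at silenced repeats, measured 8.49, 8.51 and 8.50 in butyrate, 8.63, 8.68 and 8.56 in TSA, and 8.06, 8.35 and 8.05 in untreated samples. It rose by 0.35 ± 0.079 and 0.47 ± 0.079 (adjusted p = 0.00347 and 0.000536), with a butyrate value of −0.0714 on the hybridization spike-in scale. The other, dimmer probe sets of Setdb1 were called higher with butyrate (0.30 and 0.33) and not called with TSA (0.10 and 0.12). Ehmt2 (G9a), which methylates H3K9 in euchromatin, was not called (0.07 ± 0.058 and 0.09 ± 0.058). Nsd1, an H3K36 methyltransferase, lay near the floor at 4.77 to 5.02 on all arrays and was not called.

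The lysine demethylases held the largest rises of the members and several falls: of 7 measured, 3 rose and 3 fell with butyrate, and 3 rose and 2 fell with TSA. The KDM5 family removes methyl groups from H3K4. Kdm5b measured 8.27, 8.29 and 8.40 in butyrate, 8.26, 8.33 and 8.08 in TSA, and 7.25, 7.16 and 6.92 in untreated samples. All treated arrays stood well above all untreated ones, with changes of 1.21 ± 0.091 (adjusted p = 1.26e-06) and 1.11 ± 0.091 (adjusted p = 2.96e-06). The rise was called on both spike-in scales and in its dimmer probe set (0.94 and 1.12). Kdm5a measured 9.49, 9.68 and 9.56 in butyrate, 9.46, 9.48 and 8.89 in TSA, and 8.97, 8.75 and 7.97 in untreated samples. Its untreated arrays were the most scattered of any member, and 1 TSA array fell among them. The changes were 1.01 ± 0.235 with butyrate (adjusted p = 0.00383) and 0.71 ± 0.235 with TSA (adjusted p = 0.0284). Without the third untreated array, the lowest one, the TSA change was 0.419 (limma adjusted p = 0.0654). Without TSA replicate 1 or 2 it was 0.623 and 0.613, also not called.

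Kdm5c, the X-linked member of the family, moved the other way. It measured 6.21, 6.53 and 6.39 in butyrate, 6.59, 6.45 and 6.49 in TSA, and 6.90, 6.87 and 6.79 in untreated samples, with changes of −0.47 ± 0.078 and −0.34 ± 0.078 (adjusted p = 0.000423 and 0.00401). A dimmer Kdm5c probe set was called lower with TSA (−0.85) and not called with butyrate (−0.54). Within arrays, Kdm5a minus Kdm5c was higher by 1.49 with butyrate and by 1.06 with TSA, without overlap (exact permutation p = 0.1 each, the smallest possible).

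Kdm6a (UTX), which removes H3K27 methylation, measured 9.17, 9.25 and 9.24 in butyrate, 9.41, 9.54 and 9.67 in TSA, and 10.15, 9.97 and 10.16 in untreated samples. It fell by 0.87 ± 0.076 with butyrate (adjusted p = 3.83e-06) and by 0.55 ± 0.076 with TSA (adjusted p = 0.000135), and a second probe set fell by 0.74 and 0.52. Kdm3a, an H3K9 demethylase, separated the treatments: it measured 8.58, 8.58 and 8.65 in butyrate, 9.35, 9.27 and 9.27 in TSA, and 9.29, 9.41 and 9.35 in untreated samples. The butyrate change was −0.75 ± 0.052 (adjusted p = 6.66e-07), the TSA change −0.05 ± 0.052 (not called), and the difference between butyrate and TSA −0.70 ± 0.052 (adjusted p = 1.6e-05). Kdm2b, which removes H3K36 methylation and brings a PRC1 form to CpG islands, rose to 11.08, 11.14 and 11.20 in butyrate and 11.01, 10.96 and 10.95 in TSA, against 10.44, 10.62 and 10.52 in untreated samples. That was 0.61 ± 0.058 and 0.45 ± 0.058, and 0.194 without a call with butyrate on the hybridization spike-in scale. Kdm4b was not called with either treatment (−0.10 ± 0.053 and −0.01 ± 0.053).

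The arginine methyltransferases Prmt1 and Prmt5 each answered mainly to 1 treatment. Prmt1, the main enzyme of asymmetric arginine dimethylation, measured 8.71, 8.28 and 8.68 in butyrate, 9.16, 9.40 and 9.30 in TSA, and 9.32, 9.34 and 9.36 in untreated samples. It fell by 0.78 ± 0.108 with butyrate (adjusted p = 0.000115) and was not called with TSA (−0.05 ± 0.108); butyrate lay 0.73 ± 0.108 below TSA (adjusted p = 0.00062). Prmt5, the main enzyme of symmetric dimethylation, measured 7.82, 7.70 and 7.88 in butyrate, 8.21, 8.25 and 8.29 in TSA, and 7.44, 7.45 and 7.56 in untreated samples. It rose by 0.77 ± 0.060 with TSA (adjusted p = 2.08e-06) and by 0.31 ± 0.060 with butyrate, with a butyrate value of −0.105 on the hybridization spike-in scale. Carm1, a coactivator methyltransferase, was not called (−0.07 ± 0.079 and 0.00 ± 0.079).

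Set directly against each other, butyrate and TSA differed in 19 of 43 members, with butyrate higher in 5 and lower in 14. Over all genes 35.9% were called, 15.9% higher and 20% lower with butyrate, and 50.8% of the genes above the median level were called. Arrays did not overlap for 30 members, against 50.3% of all genes. Without TSA replicate 2 or 3 only 2 members were called higher with butyrate, and without butyrate replicate 2 or 3 only 3. None of the 43 differed by 2-fold, as did 0.379% of all genes. The largest differences were lower levels with butyrate of Prmt1 (−0.73), Bmi1 (−0.73), Kdm3a (−0.70) and Prmt5 (−0.45) and a higher level of Brd2 (0.73). Of the 5 higher calls, only that of Brd2 was kept on the hybridization spike-in scale (0.362, adjusted p = 0.00361); Ezh1, Jarid2, Kmt2d and Kdm2b turned below 0 there, and Jarid2 was called lower. All 14 lower calls were kept on both spike-in scales. These scales lower every such difference, by 0.365 (hybridization) and 0.351 (poly-A), so falls only deepen there.

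Pairs of related genes were compared within arrays. Of 10 pairs of related members, the log2 difference of the pair did not overlap between treated and untreated arrays in 7 with butyrate and 8 with TSA. Of single genes, 62.7% and 54.9% did not overlap, and the share for pairs of unrelated genes was not computed. None of the 20 tests could pass a threshold of 0.05, since 0.1 is the smallest exact p for 3 arrays against 3. Besides the pairs above, Ncoa1 minus Ncoa3 was higher by 0.415 with butyrate and 0.479 with TSA. Prmt1 minus Carm1 changed by −0.711 with butyrate, and its TSA arrays overlapped the untreated ones.

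**Figure D3:**
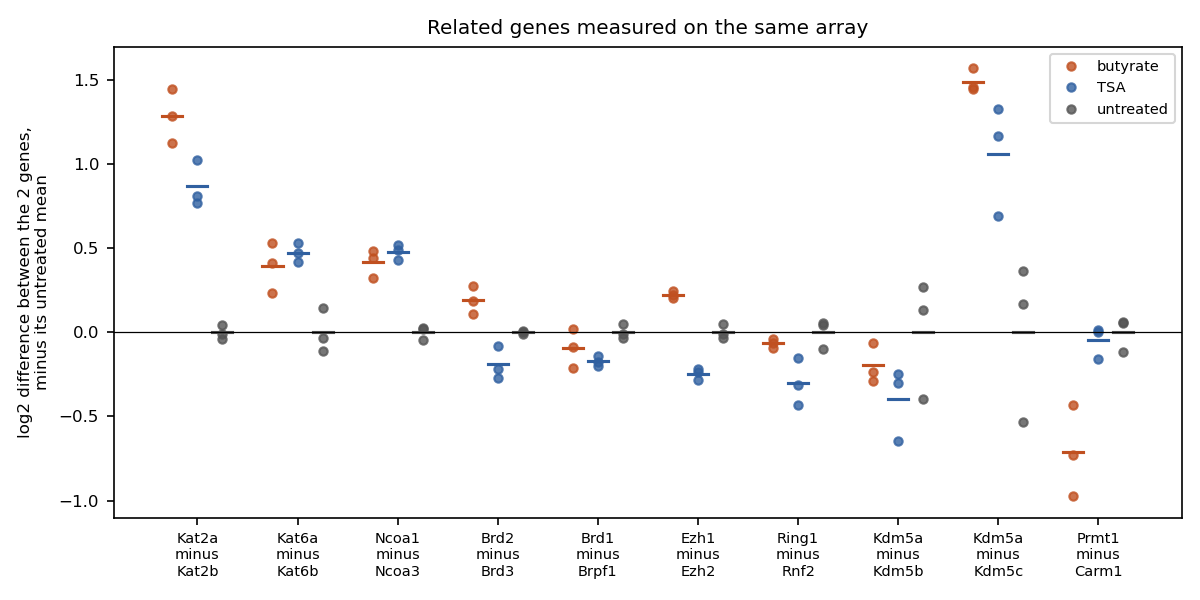
Difference in log2 level between 2 related members on the same array, minus its mean over the 3 untreated arrays (y axis, log2 units), for 10 pairs; points are arrays and bars are group means, in the order butyrate, TSA, untreated. Kat2a minus Kat2b and Kdm5a minus Kdm5c stand highest in treated cells, at 1.28 and 1.49 with butyrate, and Ezh1 minus Ezh2 moves up with butyrate and down with TSA.

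Further genes of the same machinery, 128 in all of which 95 were measured, were counted in 6 lists, which were also chosen with results of these data known. With butyrate 28 rose and 40 fell and with TSA 27 rose and 31 fell, so that 71.6% and 61.1% were called, against 58.4% and 47.3% of all genes and 75.9% and 70.3% of those above the median level. Scaled to the hybridization spike-ins, 7 were called higher and 69 lower with butyrate. Of 15 Polycomb subunits, 9 rose and 1 fell with butyrate on the deposited scale, but 4 were called higher and 7 lower once scaled to the hybridization spike-ins, with a median of −0.15 there and 0.269 as deposited. With TSA 10 rose and 1 fell (median 0.327), and 8 and 1 on the hybridization spike-in scale. Cbx6, a chromodomain subunit of PRC1, rose by 1.84 ± 0.098 with butyrate and 2.03 ± 0.098 with TSA, and Yaf2, a subunit of PRC1 forms without Cbx proteins, rose by 1.19 ± 0.074 with butyrate and 0.93 ± 0.074 with TSA. Cbx2, another chromodomain subunit, rose by 0.95 ± 0.096 with butyrate and 0.80 ± 0.096 with TSA, and all 3 kept their calls on the hybridization spike-in scale. Among 24 partners of acetyltransferases and further acetyltransferases, butyrate raised 7 and lowered 12, and TSA raised 5 and lowered 7. Scaled to the hybridization spike-ins, 19 of the 24 were called lower with butyrate. Epc1, a scaffold of the TIP60 complex to which Brd8 also belongs, fell by 1.96 ± 0.064 with butyrate and 1.48 ± 0.064 with TSA. Msl1 and Jade1, scaffolds of other MYST acetyltransferase complexes, fell by 0.95 and 0.97 with butyrate.

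Among 23 further acetyl-lysine readers, butyrate raised 4 and lowered 13, or 1 and 17 once scaled to the hybridization spike-ins, and TSA raised 4 and lowered 10. Yeats4, a YEATS-domain subunit of the TIP60 and SRCAP complexes, fell by 1.25 ± 0.062 with butyrate and 1.31 ± 0.062 with TSA, Baz2b by 0.92 and 0.62, and Zmynd8 by 0.79 and 0.90. Among further lysine methyltransferases and their subunits, 5 of 18 rose and 6 fell with butyrate, 1 and 13 once scaled to the hybridization spike-ins, and 4 rose and 6 fell with TSA. Kmt5b (SUV420H1), which methylates H4K20, had the largest change of the 95 genes, −3.10 ± 0.127 with butyrate and −2.92 ± 0.127 with TSA, and a second probe set of similar brightness changed by −2.73 and −2.43. Hcfc1, a cofactor of SET1 and MLL complexes, fell by 1.28 ± 0.062 and 0.95 ± 0.062, and Men1 (menin), a partner of Kmt2a, rose by 0.71 ± 0.053 and 0.74 ± 0.053. Of 11 further demethylases 3 rose and 6 fell with butyrate and 4 rose and 5 fell with TSA, and with butyrate 1 rose and 9 fell when scaled to the hybridization spike-ins. Phf2, a PHD-finger demethylase, changed by −0.90 ± 0.094 with butyrate and −0.55 ± 0.094 with TSA, while its 3 dimmer probe sets were not called. Kdm3b, like Kdm3a an H3K9 demethylase, fell by 0.80 with butyrate and 0.45 with TSA, and its relative Jmjd1c rose by 0.63 and 0.30, with both rises called on that scale too. Of 4 further arginine methyltransferases, Prmt2 and Prmt3 fell, by 0.93 and 0.91 with butyrate and by 0.70 and 0.50 with TSA.

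**Figure D4:**
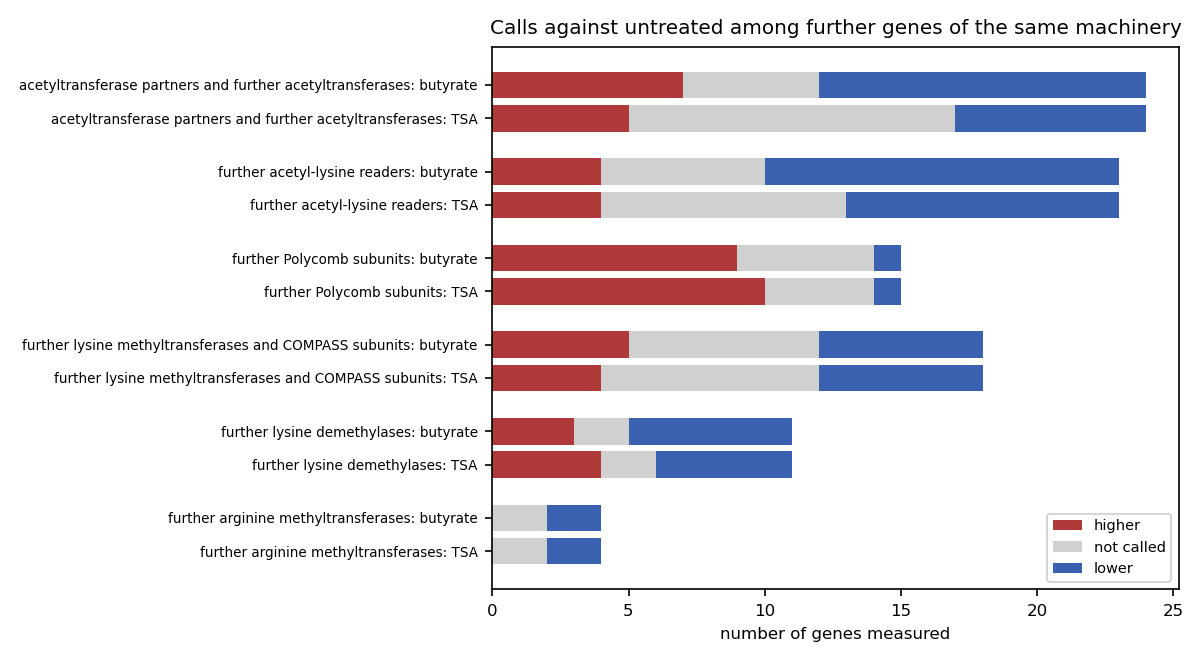
Number of measured genes (x axis) called higher (red), not called (grey) or called lower (blue) against untreated cells in 6 lists of further acetylation and methylation genes, on the deposited scale, with butyrate above TSA in each pair. Polycomb subunits hold 9 higher of 15 with butyrate (4 higher and 7 lower on the hybridization spike-in scale) and 10 with TSA, while acetyl-lysine readers hold 13 lower of 23 with butyrate and 10 with TSA.

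Probe sets of 1 gene differed in places. Of 43 members, 24 had more than 1 probe set, with 37 further ones in all. Where the chosen probe set was called, the further one had the same call in 20 cases with butyrate and 11 with TSA, was not called in 7 and 13, and had the opposite call in 1 each, that of Eed.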

How the data were processed

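Expression was measured on 9 one-colour Affymetrix arrays, 3 each of butyrate-treated, TSA-treated and untreated DC, with biotin-labelled total RNA. The deposited values are log2 levels of 22690 probe sets from the authors' RMA step, which the submitters' processing notes name. RMA corrects the background, makes the arrays' distributions equal and summarises the probes of a set. Which program made them is not stated. Of the probe sets, 20380 had 1 gene symbol in the platform annotation, 691 had several, 64 were controls and 1555 are unnamed here. Gene IDs of 20351 matched RefSeq (GRCm38.p6) and no symbol changed. The brightest probe set stood for each of 12393 genes.

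All 9 arrays were fitted with 1 mean per group with limma 3.58.1 in R 4.3.3 (lmFit, eBayes; 6 residual and 3.9 prior degrees of freedom). P-values were adjusted by Benjamini-Hochberg over all genes of a comparison, with calls at an adjusted p under 0.05. Further probe sets were fitted with all 20380. On simulated data, with far fewer changed genes than were called here, the fit recovered 100% of changes of 1 log2 unit. Of changes of 0.25 it recovered 37.3% for butyrate, 23.9% for TSA and 32.8% for butyrate against TSA. With so few changed genes the simulated cut-off was stricter than the one used here. These shares therefore do not tell how many small changes were missed in the data. Related genes were compared by exact two-sided permutation tests of their difference per array. The members, roles and further genes were chosen with earlier results of these data known. All members may be named; all array values are given for called members with a change of at least 0.75 log2 units in either treatment, and for others where a result turns on them, chosen after their values were seen. Of each list of further genes, up to 3 called genes with the largest changes were named. A planned ranking of genes by correlation with a member was left out, since the arrays cluster by group. Array depth is not defined, and the number of arrays limits the precision. Alternatives were 4 other scalings (both spike-in scales, quantile and median), a level filter, other probe set choices, another moderation, fits on 6 arrays, the replicate number as a block and leaving out each array. The labels do not say that replicate numbers pair samples, so the block was not used. Of 9 same-numbered pairs 2 had deviations correlated above 0.1 (r from −0.12 to 0.21). For differently numbered pairs r ran from −0.246 to 0.157.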

Additional observations from a re-analysis of the deposited data

How the results depend on the processing

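Leaving out each array in turn, the members called higher and lower numbered 14 to 15 and 14 to 16 with butyrate, 12 to 15 and 9 to 10 with TSA, and 2 to 7 and 12 to 14 for butyrate against TSA, with 2 higher without TSA replicate 2 or 3, 3 without butyrate replicate 2 or 3 and 7 without untreated replicate 3. Pairs of related genes without overlap numbered 7 to 8 with butyrate and 8 to 10 with TSA. Leaving out an array can only keep or raise the number of such pairs, so this range is no test of it. With the replicate block, which the labels do not call for, 14 rose and 16 fell with butyrate and 15 and 9 with TSA. For butyrate against TSA 4 were higher and 14 lower. The block brought a TSA call for Brd3 (0.366, limma adjusted p = 0.0145). Scaling moved more. On the hybridization spike-in scale 4 members rose and 29 fell with butyrate, 10 rose and 9 fell with TSA, and 1 was higher and 35 lower against TSA. On the poly-A spike-in scale, which varied more between arrays, 3 rose with butyrate, 4 rose and 5 fell with TSA, and limma called 0 higher with butyrate against TSA (0 at an unadjusted p under 0.05). A further quantile normalization called 9 higher there. Over all genes, the higher and lower calls were 4166 and 3075 with butyrate on the deposited scale, 916 and 8448 when scaled to the hybridization spike-ins and 543 and 3389 when scaled to the poly-A ones. Against TSA they were 1968 and 2480, 110 and 9202, and 17 and 2931.

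With butyrate, 17 members above 0 as deposited lay below 0 when scaled to the hybridization spike-ins and 13 when scaled to the poly-A ones; against TSA there were 14 each. Those called on the deposited or the other scale were, with butyrate on the hybridization spike-in scale, Kat6a (−0.386), Brd1 (−0.415), Brd7 (−0.268), Brpf1 (−0.320), Ezh1 (−0.121), Ezh2 (−0.343), Suz12 (−0.348), Ring1 (−0.0689), Rnf2 (−0.00380), Cbx7 (−0.230), Kmt2a (−0.0176), Kmt2d (−0.0912), Wdr5 (−0.363), Nsd1 (−0.340), Setdb1 (−0.0714), Ehmt2 (−0.353) and Prmt5 (−0.105). Against TSA, those called on either scale were Kat2a (−0.266), Kat6a (−0.285), Ezh1 (−0.189), Jarid2 (−0.201), Ring1 (−0.242), Cbx7 (−0.271), Kmt2d (−0.0590), Nsd1 (−0.217), Kdm2b (−0.199) and Kdm5b (−0.267). On the poly-A spike-in scale those called on either scale were Brd7 (−0.195), Ezh1 (−0.0470), Kmt2d (−0.0173) and Prmt5 (−0.0315) with butyrate, and Ezh1 (−0.175), Jarid2 (−0.187), Kmt2d (−0.0449) and Kdm2b (−0.185) against TSA. These shifts follow from the scaling itself, which moves all genes of an array together. Choosing the probe set with the largest variance reversed Eed (0.337 with butyrate, 0.359 with TSA), Kat7 (0.173 with butyrate, 0.303 against TSA) and Suz12 (−0.0589 with TSA), and the mean of all probe sets reversed Kat7 (0.0132 with butyrate) and Eed (0.0697 with TSA). Under every alternative run, 14 of 31 butyrate calls, 8 of 23 TSA calls and 9 of 19 calls between the treatments were kept; Bmi1 and Kdm6a were among them in all 3 comparisons.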
